A study of Mus musculus with 3 samples.

Results

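Harmine given ahead of lipopolysaccharide (LPS) was compared with LPS alone in RAW264.7, a mouse macrophage line from a virus-induced tumour, with 1 RNA-seq library on each side. The LPS library came from cells exposed to LPS at 0.5 µg/ml for 6 h. The harmine plus LPS library came from cells that received harmine at 10 µM for 0.5 h and then LPS at 0.5 µg/ml for 6 h. The libraries were chosen by those treatments, and they make up 2 of the 3 libraries of the series. The remaining library, from cells in common medium without either agent, is shown beside them as a level only. The labels give the genotype of all 3 as wild type and the tissue of the line as lung. No library of cells given harmine alone was analysed here, so a difference described below cannot be told apart from one that harmine would make without LPS.

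LPS is a glycolipid of the outer membrane of Gram-negative bacteria. It binds CD14 and the TLR4 and MD-2 complex on macrophages, and the adaptors MyD88 and TRIF carry the signal to NF-kB, to the MAP kinases and to IRF3. Early targets are cytokine and chemokine genes, while interferon beta made by the cells drives a later set of antiviral genes through its own receptor. Harmine is a beta-carboline alkaloid known as an inhibitor of monoamine oxidase A and of the kinase DYRK1A, which phosphorylates NFAT factors and the MuvB subunit LIN52.

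The comparison used FPKM, the authors' deposited fragment values per length of transcript and depth of library, in 11737 of the 26661 genes of the table, those at 1 FPKM or more in at least 1 of the LPS and harmine plus LPS libraries. The lowest gene kept reached 1.0001 FPKM and the highest gene left out 0.99982 FPKM. Differences are log2(FPKM + 1) with harmine plus LPS minus log2(FPKM + 1) with LPS, a scale that understates the change of low genes. A range in brackets after a plain FPKM ratio is its 95% exact interval from the split of read pairs, which covers counting error only. Wherever 3 FPKM values stand together, the first is the control, the next LPS and the last harmine plus LPS. The deposited counts summed to 52845589 with LPS and 56391972 with harmine plus LPS, and 4 counts were taken as 1 read pair. Each group is 1 library, so the differences lack a replicate check, p-values were not computed, and differences between cultures enter every value.

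Most transcripts differed little. Of the compared genes, 10691 (91.1%) lay within 1.5-fold, and the values between the 5th and the 95th percentile ran from -0.48 to 0.60 on the log2 scale. At 2-fold or more, 81 genes (0.69%) were higher with harmine plus LPS and 114 (0.971%) lower. At 1.5-fold or more, 640 (5.45%) were higher and 406 (3.46%) lower. The lower genes were the more abundant ones: 70 of the 114 reached 10 FPKM in 1 of the libraries, against 21 of the 81. Among the 445 genes with a mean over 100 FPKM, 18 were 2-fold lower and 0 were 2-fold higher. The counting interval lay wholly past 1.5-fold for 109 of the 114 and 72 of the 81.

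The median gene differed by 0.10 on the log2 scale. By mean level the median was 0.14 at 2 to 5 FPKM, 0.09 at 10 to 30, 0.04 at 30 to 100 and -0.01 over 100 FPKM. Values are therefore better read against 0.10 than against 0, but those of abundant genes against a median nearer 0. Scaling the libraries by median-of-ratios moved the all-gene median by -0.10. With that scaling 58 genes were 2-fold higher and 149 lower, and 369 and 565 at 1.5-fold, so that the higher genes made up 28.0% in place of 41.5% of the 2-fold calls and 39.5% in place of 61.2% of the 1.5-fold calls. Rescaling to TPM gave 345 higher and 254 lower at 2-fold. Median-of-ratios scaling lowers every difference, so it can only add lower calls and remove higher ones.

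**Figure D1:**
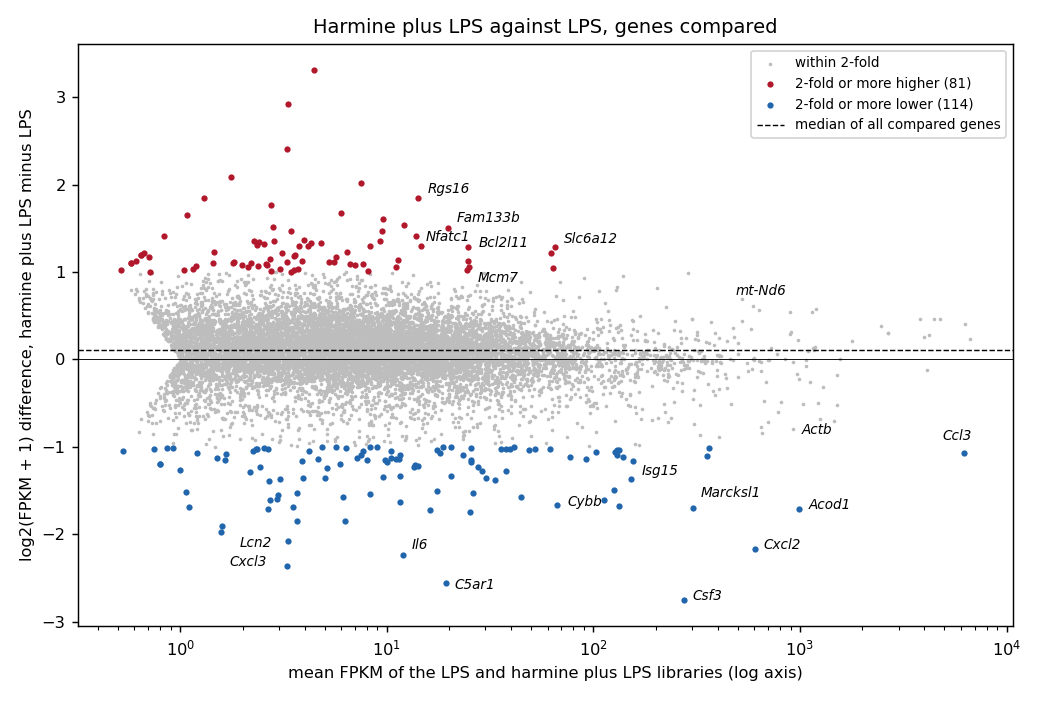
Each point is 1 of the 11737 compared genes, with the mean FPKM of the LPS and harmine plus LPS libraries on the log x axis and the log2(FPKM + 1) difference, harmine plus LPS minus LPS, on the y axis; the dashed line is the median of 0.10. The 81 genes 2-fold or more higher are red and lie mostly at low levels, while the 114 lower genes are blue and include the most abundant of the called genes.

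Secreted cytokines stood lower as a group. Of 19 compared members of the list, 9 were 2-fold or more lower and 1 was higher, beside 0.971% and 0.69% of all genes, and the list median was -0.96 beside 0.10. Csf3 (chromosome 11, 98701263 to 98703629), which encodes the granulocyte growth factor G-CSF, stood at 0.971, 476 and 70.01 FPKM. It remained well above control with harmine but was 6.801-fold (6.45 to 7.18) lower than with LPS. Il6, for the acute-phase cytokine interleukin 6, stood at 0, 20.4 and 3.54 FPKM, and was listed at 0 in the control. Lif, a cytokine of the interleukin 6 family, stood at 0.0849, 53.8 and 21.6 FPKM (-1.28 on the log2 scale). Csf2, for the growth factor GM-CSF, stood at 0.532, 66.8 and 21.8 FPKM (-1.57), and Ifnb1, for interferon beta, at 0, 6.05 and 1.76 FPKM (-1.35). The list was not lower throughout. Il15, which sustains natural killer and memory T cells, stood at 0.594, 1.65 and 4.41 FPKM and was higher with harmine by a factor of 2.68 (1.94 to 3.64). Csf1, the macrophage growth factor, stood at 0.0973, 4.78 and 6.46 FPKM and Vegfa, the vascular growth factor, at 3.61, 4.53 and 5.84 FPKM, both within 1.5-fold. Tnf stood at 55.6, 1436 and 1016 FPKM, a smaller relative difference (-0.50) than those of Csf3 and Il6.

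The kappaB motif, the usual binding letters of NF-kB, was searched in the window from 250 bases before to 50 bases after each gene's start in RefSeq (build GRCm38.p6), on both strands. It was present in 7 of the 14 cytokine promoters in that table, beside 10.1% of the promoters of all compared genes. The members with the motif had a median of -0.41 and those without it -0.96. No promoter was read for Csf3, the lowest of the 19 compared cytokines, so it is in neither median. The promoters of Il6 (chr5:30012864-30013163, plus strand) and of the chemokine gene Cxcl2 (chr5:90903649-90903948, plus strand) are shown because both genes were more than 4-fold lower and hold the motif, here in capitals. In Il6 it began at -44 relative to the start site. In Cxcl2 a pair of overlapping matches began at -97.
Il6: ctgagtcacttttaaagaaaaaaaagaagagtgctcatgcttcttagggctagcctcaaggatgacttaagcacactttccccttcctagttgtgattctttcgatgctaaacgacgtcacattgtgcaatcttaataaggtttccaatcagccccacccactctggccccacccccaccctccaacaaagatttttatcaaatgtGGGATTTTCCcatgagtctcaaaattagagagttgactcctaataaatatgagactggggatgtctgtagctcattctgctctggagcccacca
Cxcl2: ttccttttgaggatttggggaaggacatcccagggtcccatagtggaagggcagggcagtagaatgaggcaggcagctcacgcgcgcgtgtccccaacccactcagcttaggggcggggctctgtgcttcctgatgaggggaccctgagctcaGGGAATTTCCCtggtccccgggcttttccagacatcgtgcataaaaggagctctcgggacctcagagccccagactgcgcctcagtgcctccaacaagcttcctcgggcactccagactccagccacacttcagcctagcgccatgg

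Every listed chemokine past 1.5-fold stood lower with harmine plus LPS, while the other compared members lay within that bound. In the CXC family the lower genes were Cxcl2 and Cxcl3, 2 of the 5 compared. Cxcl2 (chromosome 5, 90903871 to 90905938), a neutrophil attractant, stood at 3.13, 985 and 219 FPKM and was lower with harmine by a factor of 4.499 (4.38 to 4.62). Its neighbour in function Cxcl3 stood at 0, 6.16 and 0.395 FPKM, so that with harmine it stood under 1 FPKM. Cxcl10, a T cell attractant induced by interferons, stood at 0.831, 47.5 and 49.9 FPKM and did not share that difference. Of 11 CC chemokines, 5 were 1.5-fold or more lower and 0 higher, beside 3.46% and 5.45% of all genes. Ccl3 had the highest level of the list at 89.8, 8466 and 4026 FPKM, Ccl4 stood at 22.8, 1538 and 956 FPKM, and Ccl22, a ligand of CCR4, at 0.3298, 132 and 73.97 FPKM. Ccl9 (-0.21), Ccl7 (-0.10) and Ccl5 (-0.15) lay within 1.5-fold on the log2 scale, with Ccl5 at 1.15, 355 and 319 FPKM.

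Receptors for chemoattractants were lower too, with 5 of 7 compared members at 1.5-fold, 1 higher and a median of -0.90. C5ar1, which binds the anaphylatoxin C5a, stood at 1.73, 33.7 and 4.87 FPKM and was lower with harmine by a factor of 6.91 (5.95 to 8.06). Gpr84, a receptor of medium-chain fatty acids, stood at 38.6, 216 and 95.7 FPKM (-1.16 on the log2 scale), and Ccrl2, an atypical receptor that binds chemerin, at 0.0889, 19.01 and 9.71 FPKM (-0.90). Cx3cr1, the fractalkine receptor, differed from these in its control level: it stood at 91.3, 25.03 and 12.1 FPKM, highest in untreated cells and lowest with harmine plus LPS. Gpr183, an oxysterol receptor, went the other way, at 35.1, 3.86 and 8.55 FPKM. Outside the list, the hydroxycarboxylic acid receptor Hcar2 stood at 0.967, 26.2 and 8.59 FPKM and the lectin receptor Clec4e, which recognises mycobacterial glycolipid, at 7.04, 39.2 and 12.9 FPKM. Hdc, which makes histamine, stood at 0.0642, 10.4 and 2.15 FPKM.

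**Figure D2:**
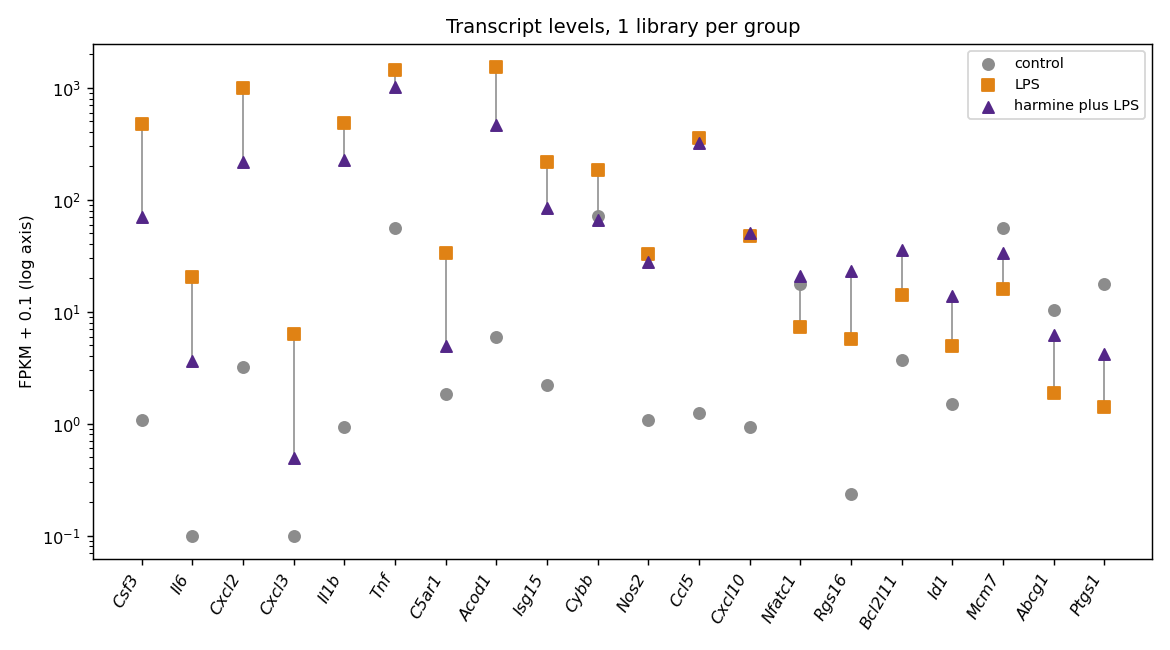
FPKM plus 0.1 on a log axis for 20 genes in the control (grey circles), LPS (orange squares) and harmine plus LPS (purple triangles) libraries, 1 library each, with a line joining the last 2. Csf3, Il6, Cxcl2, Cxcl3, C5ar1 and Acod1 stand lower in the harmine plus LPS library, Nos2, Ccl5 and Cxcl10 nearly coincide, and Nfatc1, Rgs16, Bcl2l11 and Id1 are higher.

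Calls in the signalling lists described next were in the lower direction, beside 3.46% of all genes 1.5-fold lower and 5.45% higher. Other such lists did not go that way. Of 10 MAP kinase phosphatases 1 was 1.5-fold higher and 0 lower. Of 19 EGR, NR4A, KLF and ID factors 6 were higher and 4 lower. In the list of the TLR4 complex, its adaptors and its kinases, 3 of 17 members were 1.5-fold or more lower and 0 higher, with a median of -0.26. They were Irak3, a braking member of the IRAK kinases, at 2.35, 8.62 and 3.18 FPKM, the LPS coreceptor Cd14 at 231, 813 and 476 FPKM, and the phosphoinositide 3-kinase adaptor Pik3ap1 at 20.5, 67.5 and 44.4 FPKM. Tab1 (0.49) was the highest of the list on the log2 scale. Of 24 NF-kB subunits, IkB proteins and ubiquitin regulators, 2 were lower and 0 higher, and the median was -0.09. The lower ones were the kinase Ikbke at 3.35, 30.8 and 17.1 FPKM and the nuclear IkB protein Bcl3 at 3.57, 9.88 and 6.21 FPKM, while Rel stood at 6.65, 44.6 and 49.3 FPKM. Of 13 compared AP-1 and small MAF factors, 3 were 1.5-fold lower and 0 higher. Fosl1 stood at 0.882, 19.1 and 11.001 FPKM and Maff at 0.882, 8.82 and 3.87 FPKM, whereas Junb, the most abundant of them, stood at 50.7, 317 and 426 FPKM. Of 14 SOCS and mRNA decay regulators 2 were 1.5-fold lower: Cish, a feedback inhibitor of STAT5, at 0.0231, 3.48 and 1.48 FPKM, and Zc3h12a, the RNase Regnase-1, at 5.35, 55.7 and 35.3 FPKM.

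Calls among genes of the interferon response were all in the lower direction, and many members were not called. Of 38 antiviral effectors, 6 were 2-fold and 19 were 1.5-fold or more lower, 0 were 1.5-fold higher, and the median was -0.59. Zbp1, a sensor of Z-form nucleic acid, stood at 0.163, 12.8 and 3.76 FPKM, Isg15, a ubiquitin-like modifier, at 2.09, 219 and 84.1 FPKM, and Rsad2, which makes an antiviral nucleotide, at 0.0855, 25.3 and 12.1 FPKM. Each remained above control with harmine. Oas2 (0.12), Dtx3l (0.06) and the RNA editor Adar (0.02) lay at or near 0 on the log2 scale, so the difference did not extend to the whole list. Of 10 interferon-inducible GTPases, which act against intracellular pathogens, 5 were 1.5-fold lower and all 10 lay below 0 (median -0.50, and -0.29 with TPM scaling). Gvin1 stood at 0.843, 9.46 and 4.42 FPKM and Gbp3 at 0.109, 10.8 and 6.57 FPKM, while Irgm1, the most abundant of them, stood at 2.45, 34.6 and 29.7 FPKM (-0.21). Of 7 Schlafen genes 3 were 1.5-fold lower and 0 higher: Slfn8 (-0.79), Slfn5 (-0.78) and Slfn4, which stood at 22.1, 203 and 63.04 FPKM (-1.67), while Slfn2, the most abundant member, stood at 16.9, 357 and 353 FPKM (-0.02).

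The receptors, IRF and STAT factors upstream of these genes differed less, but Ifnb1, counted with the cytokines, was lower (-1.35 on the log2 scale). Among 21 interferon receptors, IRF and STAT factors, 2 were 1.5-fold lower and 0 higher, with a median of -0.07. The lower ones were Irf8, a myeloid lineage factor, at 11.4, 10.5 and 5.94 FPKM, and Stat3, which transmits interleukin 6 and 10 signals, at 4.66, 11.4 and 6.89 FPKM. Irf7, which amplifies type I interferon, stood at 2.25, 70.2 and 46.9 FPKM, just inside 1.5-fold. Tyk2, a kinase bound to the interferon receptor, stood at 11.1, 13.5 and 19.6 FPKM, the highest difference of the list. In the list of MHC class I and the immunoproteasome, 3 of 20 were 1.5-fold lower, the peptide transporter subunits Tap1 (-0.72) and Tap2 (-0.72) and the proteasome activator Psme2 (-0.60), while H2-T23 (0.02) did not differ by 1.5-fold. The 5 compared MHC class II and presentation genes held no member past 1.5-fold.

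The interferon-stimulated response element (ISRE), searched on both strands, was found in 13 of the 28 antiviral promoters in the RefSeq table, beside 3.25% of all compared promoters. Members with the letters had a median of -0.81 and members without them -0.48. Over all compared promoters the gap was small: the 253 with the letters had a median of 0.04 and the others 0.11. Isg15 (chr4:156200769-156201068, minus strand) is shown for its 3 overlapping matches, the first at -78 from the start site, and Ifit3 (chr19:34583279-34583578, plus strand), at 0.295, 10.7 and 5.38 FPKM, for a pair of separate matches on the opposite strand, the first at -156. Capitals mark the matches.
Isg15: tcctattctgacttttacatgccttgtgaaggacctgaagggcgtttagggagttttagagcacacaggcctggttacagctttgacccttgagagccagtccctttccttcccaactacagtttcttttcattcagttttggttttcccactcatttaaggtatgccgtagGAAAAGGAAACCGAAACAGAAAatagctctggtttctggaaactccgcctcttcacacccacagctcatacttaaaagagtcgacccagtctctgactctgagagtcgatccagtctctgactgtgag
Ifit3: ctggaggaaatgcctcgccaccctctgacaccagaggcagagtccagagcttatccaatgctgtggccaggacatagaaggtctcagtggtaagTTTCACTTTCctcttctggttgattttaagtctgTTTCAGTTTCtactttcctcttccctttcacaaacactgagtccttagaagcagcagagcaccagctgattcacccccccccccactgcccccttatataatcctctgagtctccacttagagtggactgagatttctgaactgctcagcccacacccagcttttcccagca

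Several lower genes were neighbours. Runs of at least 3 consecutive compared genes past 1.5-fold in the same direction numbered 12, with 44 genes, 6 of the runs lower and 6 higher. Ifit2, Ifit3 and Ifit3b formed a run on chromosome 19 (34550694 to 34613401) with differences from -1.34 to -0.81, and Gbp3, Gbp2b and Gbp2 a run on chromosome 3 (142560026 to 142638008) from -0.97 to -0.64. The longest, 8 genes on chromosome 1 (85246851 to 85645037), held the nuclear body genes Sp110 at 10.4, 20.2 and 8.09 FPKM and Sp140 at 7.72, 19.4 and 7.86 FPKM among predicted genes of the same region. Ccl3, Ccl4 and Wfdc17 formed a run on chromosome 11 (83647844 to 83706268). Among the higher runs were the receptors Tnfrsf26, Tnfrsf22 and Tnfrsf23 on chromosome 7 (143607659 to 143685872) and a stretch of 5 genes on chromosome 5 (3341485 to 3596585). That stretch held the G1 kinase gene Cdk6 at 10.7, 16.97 and 28.7 FPKM. Fam133b in it stood at 5.42, 9.82 and 29.7 FPKM, and Rbm48 at 2.79, 2.35 and 5.66 FPKM. Members of these families resemble each other and some of these genes overlap, so reads could be split between them and their single values are uncertain.

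Transcripts of the phagocyte oxidase were lower in part. Of 11 genes of the NADPH oxidase and the superoxide dismutases, 2 were 2-fold and 5 were 1.5-fold or more lower, 0 were higher, and the median was -0.57. Cybb, the catalytic gp91-phox subunit, stood at 71.4, 186 and 65.3 FPKM, so the harmine plus LPS library was below the control as well. The cytosolic subunits Ncf4 at 64.1, 64.7 and 34.7 FPKM and Ncf1 at 135, 117 and 75.9 FPKM were also below control, whereas with LPS alone they stood nearer to it. The membrane partner Cyba stood at 151, 137 and 119 FPKM and differed by -0.20 on the log2 scale. Of the dismutases, mitochondrial Sod2 stood at 9.41, 41.2 and 16.4 FPKM and cytosolic Sod1 at 50.4, 32.5 and 32.3 FPKM. Acod1, which makes itaconate from a citrate cycle intermediate, stood at 5.83, 1519 and 462 FPKM. The other 21 genes of the citrate cycle list lay within 1.5-fold, from -0.11 to 0.41. None of the 11 genes of nitric oxide, arginine and polyamine metabolism passed 1.5-fold; Nos2, the inducible nitric oxide synthase, stood at 0.981, 32.5 and 27.7 FPKM and Odc1, which starts polyamine synthesis, at 89.2, 658 and 642 FPKM.

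Antioxidant and iron genes were lower in part. Of 21 targets of NRF2, a factor that responds to oxidants, 9 were lower at 1.5-fold and 0 higher (median -0.34). Hmox1, which degrades heme, stood at 36.7, 82.8 and 40.1 FPKM, near its control level with harmine. Srxn1, which repairs peroxiredoxins, stood at 14.1, 20.4 and 12.7 FPKM, and the cystine transporter Slc7a11 at 1.16, 7.53 and 4.49 FPKM. Gclm, the regulatory subunit of the enzyme that limits glutathione synthesis, stood at 8.48, 10.2 and 6.27 FPKM, but its catalytic partner Gclc at 22.4, 13.9 and 15.9 FPKM. Of 12 iron genes, 5 were 1.5-fold lower and 0 higher (median -0.48). Hmox1, Ftl1 and Fth1 belong to both lists, so these counts overlap. Of all genes, 3.46% were 1.5-fold lower and 5.45% higher. The ferritin chains Ftl1 and Fth1 stood at 1828, 1801 and 1104 FPKM and 1055, 941 and 620.4 FPKM, 1.5-fold or more lower in both cases, and the phagosomal metal transporter Slc11a1 at 5.47, 14.01 and 6.78 FPKM. Slc11a2, its endosomal relative, stood at 8.06, 24.9 and 25.2 FPKM. Ferritin genes have many processed pseudogenes, so their single values are uncertain.

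Lower calls in the endoplasmic reticulum (ER) list included chaperones and other genes. Of 25 genes of the unfolded protein response and ER chaperones, 3 were 2-fold and 9 were 1.5-fold or more lower, 0 were higher, and the median was -0.43. Hspa5, the chaperone BiP, stood at 330.1, 487 and 240.2 FPKM, Calr, calreticulin, at 454, 384 and 229 FPKM, and Sdf2l1, a BiP cofactor, at 110.3, 41.9 and 24.3 FPKM. For these 3 the harmine plus LPS library was the lowest. The transcription factors Xbp1 at 69.8, 50.9 and 24.4 FPKM and Ddit3 at 7.502, 11.3 and 5.696 FPKM were lower as well, but the sensors Ern1 (0.17), Atf6 (0.18) and Eif2ak3 (0.24) lay slightly above 0 on the log2 scale. Of 21 ATF4 and amino acid response genes, 1 was 1.5-fold lower, Slc7a11, and Atf4 itself stood at 125, 176 and 153 FPKM. Of 17 cytosolic and mitochondrial heat shock chaperones, 0 were 1.5-fold lower and 1 was higher, Hspa1b at 0.526, 4.74 and 8.13 FPKM, a gene whose near-identical copy Hspa1a stood at 0.131, 1.04 and 1.99 FPKM; Hspa8, the most abundant, stood at 614, 1221 and 853 FPKM (-0.52 on the log2 scale), and the list median was -0.06. Proteasome subunits showed a small difference shared by nearly all: 0 of 31 passed 1.5-fold, yet 30 lay below 0 and all 31 lay below the all-gene median, from -0.45 to 0.07 (median -0.21).

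The ER stress response element (ERSE), searched on both strands, is rare, present in 11 of the 7784 compared promoters in the table (0.141%). Of those 11 genes, 10 lay below 0 and 5 were 1.5-fold or more lower, and 8 of the 11 belong to the ER list. The median of the 11 was -0.53, beside 0.11 for promoters without the element. Within the ER list the gap was smaller: members with the element had a median of -0.57 and those without it -0.41. Syvn1, a ubiquitin ligase of ER-associated degradation, stood at 13.2, 19.3 and 12.2 FPKM, and Canx, the chaperone calnexin, at 163, 144 and 119 FPKM. Outside the list were Alg12, a mannosyltransferase of ER glycosylation (-0.61), Hnrnpa3 (-0.20) and Pan2 (0.47), the only one above 0; these 3 were chosen after their values were seen. The promoters of Hspa5 (chr2:34771840-34772139, plus strand) and Calr (chr8:84846882-84847181, minus strand) are shown with the element in capitals, at -65 in the former and, on the opposite strand, at -162 in the latter.
Hspa5: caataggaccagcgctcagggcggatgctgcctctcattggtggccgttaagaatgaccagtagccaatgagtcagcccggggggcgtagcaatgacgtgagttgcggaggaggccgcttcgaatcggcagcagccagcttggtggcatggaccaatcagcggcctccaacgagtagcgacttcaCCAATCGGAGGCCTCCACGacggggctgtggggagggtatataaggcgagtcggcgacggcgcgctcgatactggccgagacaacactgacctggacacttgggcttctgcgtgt
Calr: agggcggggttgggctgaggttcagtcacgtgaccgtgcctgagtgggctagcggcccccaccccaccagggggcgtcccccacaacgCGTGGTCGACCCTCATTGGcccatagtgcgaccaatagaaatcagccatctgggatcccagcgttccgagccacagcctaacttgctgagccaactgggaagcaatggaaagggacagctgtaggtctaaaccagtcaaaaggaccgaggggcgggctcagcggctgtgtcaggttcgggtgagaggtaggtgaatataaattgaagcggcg

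**Figure D3:**
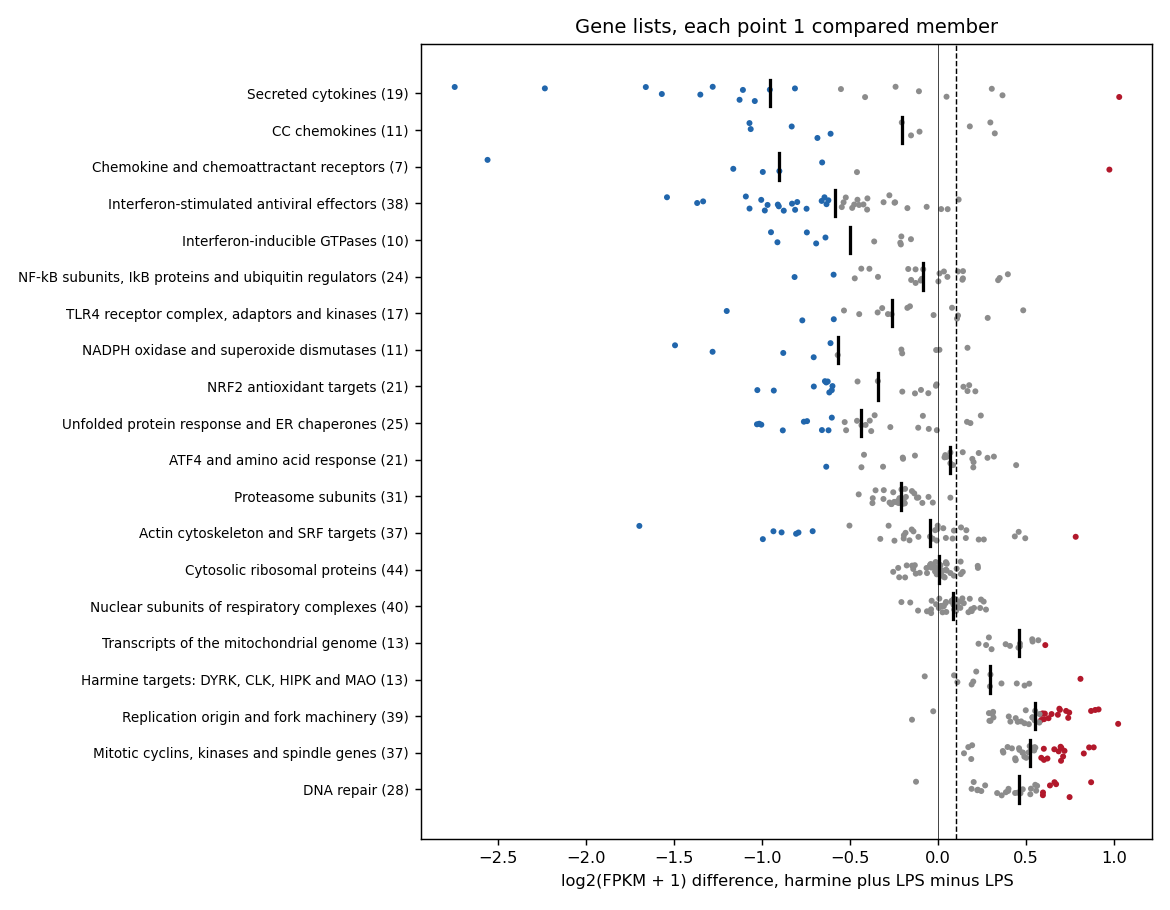
Each point is 1 compared member of the gene list named at the left, with the number compared in brackets, and its log2(FPKM + 1) difference, harmine plus LPS minus LPS, on the x axis; black bars are list medians and the dashed line is the all-gene median of 0.10. Members 1.5-fold or more lower are blue and higher are red. Cytokines, interferon-stimulated genes and the unfolded protein response and ER chaperone list lie to the left. Replication and mitotic genes lie to the right, and ribosomal proteins around 0.

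Surface receptors of the phagocyte gave a mixed picture. Of 14 compared macrophage markers, 7 were lower at 1.5-fold and 0 higher (median -0.60), but the highest of them in the harmine plus LPS library, Cd68, stood at 522, 444 and 602 FPKM and was higher than with LPS alone. Csf1r, the receptor of CSF-1, stood at 259, 65.8 and 68.2 FPKM and the lineage factor Spi1 at 99.05, 121 and 127 FPKM, with no difference at 1.5-fold. Lyz2, a lysozyme, stood at 967, 525 and 283 FPKM, Adgre1, the F4/80 antigen, at 5.703, 16.4 and 9.88 FPKM, and Itgam, the integrin CD11b, at 19.1, 13.01 and 7.86 FPKM. In RNA from whole cultures, fewer cells of a kind and less RNA per cell cannot be told apart. Of 16 scavenger and Fc receptors, 4 were 1.5-fold lower and 0 higher, among them Msr1, the class A scavenger receptor, at 17.9, 35.9 and 15.3 FPKM, Fcgr1, the high-affinity IgG receptor, at 27.2, 13.8 and 5.67 FPKM, and Fcgr2b, the inhibitory one, at 2.72, 6.03 and 2.396 FPKM. All 3 compared MS4A genes were 1.5-fold lower, with Ms4a6c at 3.71, 14.2 and 5.75 FPKM.

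Inflammasome genes were lower in 3 of 12 cases at 1.5-fold. Casp1, which cleaves pro-interleukin 1 beta, stood at 13.6, 19.4 and 7.68 FPKM, Casp4, which binds LPS in the cytosol, at 1.96, 15.6 and 8.05 FPKM, and the sensor Nlrp3 at 17.02, 177 and 82.6 FPKM. The DNA sensor Aim2 at 16.6, 20.9 and 21.9 FPKM did not differ by 1.5-fold. The cyclooxygenases went in opposite directions: Ptgs2, the inducible form, stood at 2.53, 425 and 233 FPKM, and Ptgs1, the constitutive form, at 17.5, 1.31 and 4.13 FPKM. Ptgs1 with harmine was 3.16-fold (2.43 to 4.11) higher than with LPS but remained far below the control. Among 20 genes of sterol efflux and fatty acid synthesis 1 passed 1.5-fold, the exporter Abcg1, at 10.3, 1.76 and 6.14 FPKM, while its relative Abca1 stood at 0.423, 1.18 and 0.757 FPKM. Of 24 cholesterol genes 1 passed, Insig1, which retains SREBP in the ER, at 23.4, 23.9 and 12.8 FPKM.

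The actin cytoskeleton list held a cluster of lower genes among many that did not differ. Of 37 compared members 7 were 1.5-fold or more lower and 1 was higher, with a median of -0.05. Marcksl1, an actin-binding kinase substrate, stood at 21.3, 465 and 143 FPKM and led the list. Coro1a, coronin 1A, stood at 178, 127 and 63.4 FPKM, the focal adhesion protein Zyx at 2.61, 7.76 and 3.73 FPKM, and the actin crosslinker Flna at 82.7, 80.4 and 45.5 FPKM. The cytoplasmic actins Actb at 1030.4, 1171 and 675 FPKM and Actg1 at 256, 869 and 529.8 FPKM were lower too; Actb is used as a reference gene in many assays, and it was the only 1 of 14 reference genes past 1.5-fold. Vim, for the intermediate filament vimentin, was the higher one at 149.7, 77.7 and 134 FPKM. Integrins also diverged: Itgal, the alpha chain of LFA-1, stood at 1.03, 9.68 and 2.58 FPKM and was lower with harmine by a factor of 3.76 (3.28 to 4.31); Itgav, an alpha chain of vitronectin receptors, stood at 3.21, 6.78 and 14.5 FPKM and was higher with harmine by a factor of 2.14 (1.99 to 2.29). The metalloprotease Adam8 stood at 44.3, 41.4 and 86.6 FPKM and the urokinase receptor Plaur at 10.1, 190.5 and 87.5 FPKM.

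Calls in the replication and mitotic lists were all in the higher direction, and 1 member, Mcm7, reached 2-fold. Of 39 genes of replication origins and forks, 17 were 1.5-fold or more higher and 0 lower, beside 5.45% and 3.46% of all genes, and the median was 0.55. Of 37 mitotic genes, 14 were 1.5-fold higher and all 37 lay above 0, from 0.15 to 0.89 (median 0.52). Mcm7, a subunit of the replicative helicase, stood at 56.2, 15.8 and 33.1 FPKM, and Gins3 and Pold1, of the helicase cofactor and of DNA polymerase delta, at 16.4, 3.68 and 7.69 FPKM and 27.6, 8.61 and 16.6 FPKM. In each of these 3 the harmine plus LPS library stood between LPS and control. The licensing factor Cdt1 (-0.03) and Orc1 (-0.15) were the 2 members of the replication list below 0. Among mitotic genes Mki67, the antigen of Ki-67 staining, stood at 84.5, 30.8 and 57.8 FPKM, the kinase Aurkb at 45.4, 16.3 and 29.7 FPKM and Cdc20, an activator of the anaphase-promoting complex, at 97.1, 49.4 and 81.9 FPKM. Members within 1.5-fold included the mitotic cyclin Ccnb1 at 54.05, 37.8 and 43.4 FPKM and its kinase Cdk1 at 33.5, 24.6 and 28.2 FPKM.

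Calls in the supporting pathways were in the same direction, beside 5.45% of all genes 1.5-fold higher and 3.46% lower. The p53 and MYC lists lay near the share of all genes that were higher, and the E2F and DREAM lists held 2 calls each. Of 15 genes of deoxynucleotide and thymidylate synthesis 5 were 1.5-fold higher and 0 lower (median 0.39); Rrm2, a ribonucleotide reductase subunit, stood at 78.3, 25.2 and 41.9 FPKM. Of 28 DNA repair genes 7 were higher and 0 lower (median 0.46), with Rad54l at 14.4, 4.901 and 9.79 FPKM and the crosslink repair gene Fanci at 6.17, 1.29 and 2.86 FPKM. Of 20 E2F factors and G1 cyclins 2 were higher, E2f8 at 17.3, 3.08 and 6.83 FPKM and Cdk6. Of 12 genes of the DREAM and MuvB complexes, which hold cell cycle promoters silent or active, 2 were higher, Mybl2 at 33.4, 10.8 and 20.3 FPKM and Foxm1 at 35.4, 8.63 and 14.2 FPKM, and Lin52, the subunit DYRK1A phosphorylates, stood at 2.86, 2.199 and 2.57 FPKM. Of 19 p53 targets and CDK inhibitors 1 was 1.5-fold higher, the stress gene Gadd45g at 2.43, 1.03 and 3.22 FPKM, and the inhibitor Cdkn1a stood at 30.8, 64.7 and 90.6 FPKM, highest with harmine plus LPS. Myc and Mycn were both higher, at 0.905, 26.96 and 52.4 FPKM and 245, 93.4 and 167 FPKM, but the MYC network and ribosome biogenesis list of 26 held only these 2 past 1.5-fold.

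The cell cycle homology region (CHR, TTTGAA on either strand) was found in 19 of the 29 mitotic promoters in the table, beside 11.99% of all compared promoters, and the E2F letters TTTGGCGC in 5 of the 29 replication promoters, beside 1.16%. Members with and without the CHR had medians of 0.53 and 0.52, so its presence did not go with a larger difference. The promoters of Cdc20 (chr4:118437294-118437593, minus strand), with the CHR at -18, and of the helicase subunit gene Mcm6 (chr1:128359656-128359955, minus strand), with the E2F letters at 2 places, the first at -110, are shown with those letters in capitals. Mcm6 stood at 67.7, 23.5 and 38.3 FPKM.
Cdc20: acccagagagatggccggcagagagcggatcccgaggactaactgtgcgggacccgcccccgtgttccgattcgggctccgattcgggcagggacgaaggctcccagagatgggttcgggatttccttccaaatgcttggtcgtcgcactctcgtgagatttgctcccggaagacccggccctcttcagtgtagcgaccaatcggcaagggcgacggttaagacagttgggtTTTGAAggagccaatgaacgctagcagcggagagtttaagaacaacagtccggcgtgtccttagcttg
Mcm6: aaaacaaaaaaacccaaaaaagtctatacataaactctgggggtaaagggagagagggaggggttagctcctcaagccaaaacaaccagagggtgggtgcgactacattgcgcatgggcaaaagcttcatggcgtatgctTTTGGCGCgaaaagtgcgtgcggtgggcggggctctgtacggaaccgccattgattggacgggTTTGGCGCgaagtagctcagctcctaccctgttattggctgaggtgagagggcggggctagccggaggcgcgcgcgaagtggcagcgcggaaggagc

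**Figure D4:**
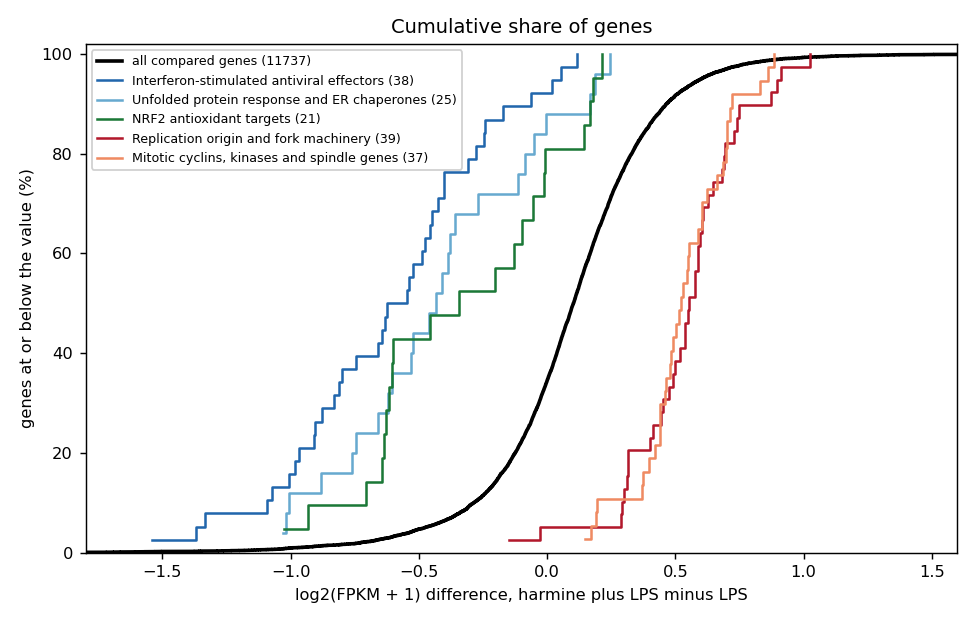
Cumulative share of genes (y axis, %) at or below each log2(FPKM + 1) difference, harmine plus LPS minus LPS (x axis), for all 11737 compared genes (black) and 5 lists. The curves of the antiviral, ER and NRF2 lists lie left of all genes and those of the replication and mitotic lists lie right of them, with medians of -0.59, -0.43, -0.34, 0.55 and 0.52.

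Transcripts of the proteins harmine is known to bind, and of their relatives, differed little. Of 13 DYRK, CLK, HIPK, haspin and monoamine oxidase genes and their kin, 1 was 1.5-fold higher, Dyrk3 at 9.94, 2.16 and 4.54 FPKM, 0 were lower, and the median was 0.30. Dyrk1a stood at 8.01, 6.403 and 8.11 FPKM and Maoa at 7.81, 8.79 and 8.29 FPKM. Of 11 genes of NFAT and calcineurin 1 was past 1.5-fold, Nfatc1, at 17.7, 7.14 and 20.6 FPKM, higher with harmine by a factor of 2.89 (2.67 to 3.13). Nfatc2 (0.03) and Nfatc3 (0.11) lay near the all-gene median on the log2 scale, as did Rcan1 (0.17), a feedback inhibitor of calcineurin that NFAT induces. Nfatc1 is also the master factor of osteoclasts, into which RAW264.7 cells can differentiate, and of 12 osteoclast genes 5 were 1.5-fold higher and 2 lower. Car2, carbonic anhydrase 2, stood at 77.2, 36.3 and 62.7 FPKM, the fusion gene Ocstamp at 0.981, 0.588 and 1.53 FPKM and the protease Ctsk at 0.181, 0.302 and 1.17 FPKM, whereas Mmp9 stood at 0.0507, 3.31 and 1.27 FPKM, Src at 0.14999, 2.21 and 1.02 FPKM and Acp5, the osteoclast phosphatase TRAP, at 3.897, 5.84 and 3.905 FPKM. The list therefore went both ways.

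The remaining higher genes were of several kinds. Rgs16 and Rgs2, which switch off G protein alpha subunits, stood at 0.134, 5.62 and 22.8 FPKM and 12.2, 5.02 and 11.2 FPKM; Rgs16 was 4.05-fold (3.47 to 4.75) higher, and the other 12 genes of the RGS and G protein list lay within 1.5-fold. Bcl2l11, the pro-apoptotic protein BIM, stood at 3.61, 14.02 and 35.5 FPKM, while of the near-identical anti-apoptotic genes Bcl2a1a, Bcl2a1b and Bcl2a1d, all below 0, Bcl2a1b passed 1.5-fold, at 22.1, 251 and 158 FPKM. The decoy receptors Tnfrsf23 and Tnfrsf22 stood at 5.23, 4.55 and 14.4 FPKM and 5.35, 3.42 and 9.33 FPKM, whereas Tnfrsf1b, a receptor of TNF, stood at 4.86, 106 and 48.1 FPKM and was 2.197-fold (2.102 to 2.297) lower. Id1 and Id2, inhibitors of helix-loop-helix factors, stood at 1.39, 4.79 and 13.8 FPKM and 6.33, 3.36 and 6.49 FPKM. Egr2 and Egr1 parted: Egr2 stood at 0.419, 1.71 and 4.88 FPKM and Egr1, with its corepressor Nab2, at 5.61, 34.6 and 16.6 FPKM and 20.3, 53.1 and 25.6 FPKM. Slc6a12, which imports betaine, stood at 70.1, 37.3 and 92.5 FPKM, and the anion transporter Slco4a1 at 100.7, 37.1 and 87.7 FPKM. Slc5a3, which imports myo-inositol and belongs to a run on chromosome 16, stood at 8.26, 2.06 and 5.69 FPKM. Akr1b3, aldose reductase, which makes sorbitol, stood at 25.5, 19.5 and 39.5 FPKM. Cited2, a partner of the coactivators CBP and p300, had the highest level of the 20 highest differences, at 149, 191 and 382 FPKM.

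By amount of transcript, the 15 largest losses summed to -11502.7 FPKM and the 15 largest gains to 11953.2 FPKM, out of totals of 320358 and 323388 FPKM in the LPS and harmine plus LPS libraries. Ccl3 (89.8, 8466 and 4026 FPKM) was the largest loss. The gains were 10 transcripts of the mitochondrial genome and 5 of their nuclear pseudogene copies. All 13 protein-coding transcripts of the mitochondrial genome were higher, by 0.23 (mt-Co1) to 0.61 (mt-Nd6), median 0.46, and their summed FPKM was 36895.8, 30927.2 and 40134.7. Mitochondrial genes held 3.18% of the deposited counts with LPS and 4.06% with harmine plus LPS. None of the 40 nuclear subunits of the respiratory complexes passed 1.5-fold (-0.21 to 0.27), none of 44 cytosolic ribosomal proteins did (-0.25 to 0.23), and none of 22 genes of glycolysis and the HIF-1 axis did (-0.43 to 0.42). The part of this shift in the other differences was not tested.

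Markers of other cell types were low but not absent. The 7 compared epithelial markers of 13 listed had a summed level, over all listed genes in the table, of 6.64, 24.4 and 30.4 FPKM, with Krt18 at 0.281, 0.9301 and 3.06 FPKM and Krt8 at 2.61, 8.09 and 10.5 FPKM. Of the 7, 5 lay above 0 on the log2 scale and 2 did not. Krt14 stood at 0.249, 3.37 and 2.33 FPKM, and Krt5 hardly differed, at 0.041, 1.84 and 1.84 FPKM. The lung markers Sftpb, Ager and Hopx were under 1 FPKM in every library, so the labelled tissue does not show in them. The fibroblast and endothelial list summed to 2.17, 11.3 and 11.4 FPKM, its compared members being Col1a1, Col1a2, Col3a1 and Acta2, and 0 of those 4 passed 1.5-fold. The erythroid globins were higher with harmine plus LPS, Hbb-bs at 3.497, 2.94 and 7.49 FPKM and Hba-a2 at 1.79, 1.29 and 3.88 FPKM, genes with near-identical copies. The T and B cell markers of the list were under 1 FPKM in both libraries, as were all neutrophil and mast cell markers, whose sum was 0.07, 1.06 and 1.86 FPKM. The part of these other RNAs in the differences above was not tested.

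Base composition and motifs were also read over all promoters. The median ratio of observed to expected CpG was 0.797 over all 7784 compared genes with a promoter, 0.780 for the 365 genes 1.5-fold or more higher, 0.390 for the 241 lower and 0.333 for the 73 that were 2-fold lower. ISRE letters were in 11.2% of the lower, 3.56% of the higher and 3.25% of all promoters. The AP-1 letters TGANTCA were in 14.1%, 3.84% and 4.62%, the kappaB motif in 14.1%, 9.04% and 10.1%, and a TATA box in 12.4%, 7.95% and 6.91%. The CHR was in 14.5%, 18.1% and 11.99%, so it was not particular to the higher genes. The E2F letters TTTGGCGC were in 1.24%, 2.19% and 1.16%, with only 8 promoters among the higher genes and 3 among the lower. The cyclic AMP element TGACGTCA was in 1.24% of the lower, 2.74% of the higher and 3.64% of all promoters, and the E-box CACGTG in 9.13%, 8.49% and 10.8%. The antioxidant letters TGANNNNGC, the CArG box, the sterol element TCACCCCAC, the heat shock letters GAANNTTC and the CLEAR motif were in 48.1%, 2.90%, 1.24%, 6.64% and 0.415% of the lower promoters, beside 43.5%, 1.14%, 0.565%, 5.60% and 0.874% of all. A match describes letters and not binding, and these shares have no test.

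**Figure D5:**
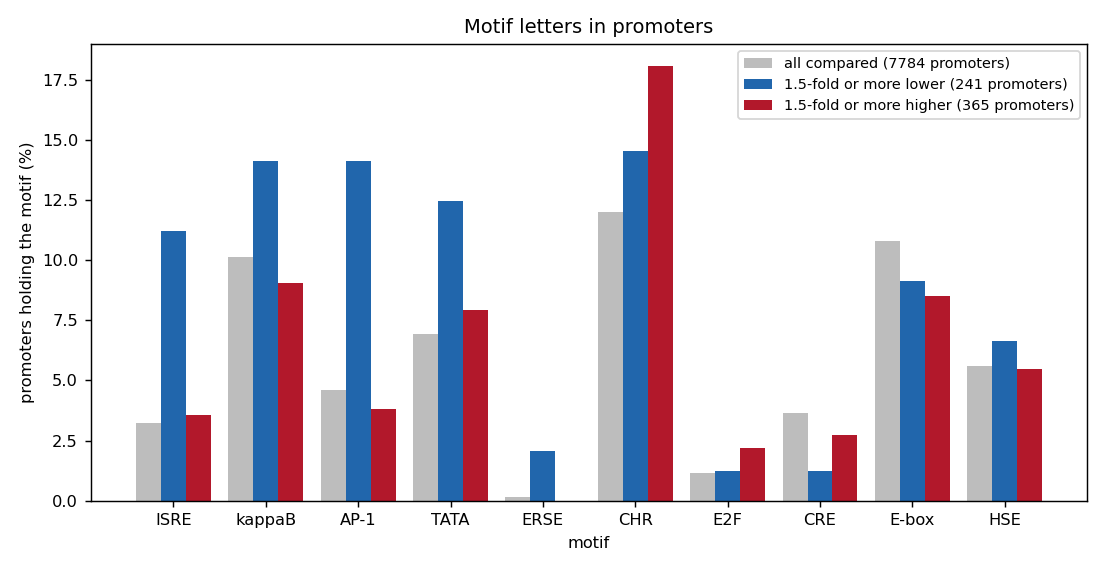
Share of promoters (y axis, %) that hold each motif (x axis) among all compared genes (grey, 7784 promoters), genes 1.5-fold or more lower (blue, 241) and genes 1.5-fold or more higher (red, 365). The blue bars of ISRE, kappaB, AP-1, TATA, ERSE and HSE stand above both others, and the red bar is the tallest for CHR and E2F.

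The 3′ untranslated regions were read for TATTTAT, the core of the AU-rich element that marks many cytokine mRNAs for decay. It occurred 0.292 times per kilobase over all compared genes with a region in the GENCODE annotation, 0.434 in genes 1.5-fold or more lower, 0.675 in genes 2-fold lower, 0.324 in genes 1.5-fold higher and 0.267 in genes 2-fold higher. The share of genes with at least 1 copy followed that order only in part. It was 29.4% of all genes, 27.3% of the 1.5-fold lower and 33.3% of the 2-fold lower genes. Among higher genes it was 25.8% at 1.5-fold and 21.1% at 2-fold. The regions of the 1.5-fold lower genes had a median length of 858 bases against 1112 for all. By copies, 3.23% of the genes with 0, 2.79% of those with 1, 1.96% of those with 2 and 5.07% of those with 3 or more were 1.5-fold lower. Csf2 held 9 copies, Tnf 8, Cxcl2 7 and Ptgs2 6, but Il6 and Acod1 held 1 each. Rgs16, which was higher, held 3. The number of copies therefore did not order these genes by their difference: Tnf (-0.50) with 8 differed less on the log2 scale than Csf3 (-2.75) with 2.

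A few genes stood at 5 FPKM or more in 1 of the libraries and under 1 FPKM in the other, which by itself is not absence. Lower were Cxcl3 and the iron-siderophore binding protein gene Lcn2, at 0.0681, 6.005 and 0.656 FPKM. Higher were Pagr1a at 5.55, 0.362 and 6.21 FPKM and the predicted genes Gm28036 at 4.54, 0.00706 and 6.62 FPKM and Gm20390 at 0, 0 and 8.88 FPKM, all of which overlap other genes, so their values are uncertain. Serpinb6b, on chromosome 13 beside Serpinb9, stood at 4.64, 0.9303 and 3.88 FPKM and 1.78, 1.51 and 3.76 FPKM in that order.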

How the data were processed

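The deposited table gives FPKM and an estimated count per gene for each library, per the file headers. Tools named in the submitters' processing notes are DESeq2, edgeR, StringTie 2.1.6, HISAT2 2.2.1 and cutadapt 1.9, with mouse build mm10, and the role of each is not given in the sources read here. No column was without a sample. The deposited FPKM values were the measure, with a pseudocount of 1 FPKM and a filter of 1 FPKM in at least 1 of the libraries compared. With 1 library a group, no count model was used. The deposited estimated counts served for counting error, for the median-of-ratios factors and for the mitochondrial shares of counts. Counts of 4 outnumbered counts of 3 (LPS, 1096 and 573 genes; harmine plus LPS, 994 and 619 genes), so 4 counts were taken as 1 read pair. The counts summed to 52845589 with LPS and 56391972 with harmine plus LPS.

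The 72 gene lists name 1416 genes, 1401 in the table and 1161 compared; 13 were matched through older symbols in the reference tables. Members and lists were chosen with earlier results of these data known. Genes were named by a rule: the 20 highest and 20 lowest differences at 10 FPKM or more in 1 library, up to 8 members of each list by difference and 3 by level, the 15 largest gains and losses in FPKM, genes at 5 FPKM or more in 1 library and under 1 in the other, runs of 3 neighbours, and a fixed set including Csf3, Tnf, Nos2 and Nfatc1. Members given beside these as contrasts (Il15, Csf1, Vegfa, Ccl7, Rel, Oas2, Dtx3l, Adar, H2-T23, Sod1, Gclc, Slc11a2, Ern1, Atf6, Eif2ak3, Canx, Csf1r, Cdt1, Orc1, Ccnb1, Cdk1, Lin52, Mcm6 and Nfatc2) were chosen after their values were seen.

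Promoters are from RefSeq (GRCm38.p6), matched for 7784 of the 11737 compared genes, and 3′ untranslated regions from GENCODE for 9681. Calculations used Python 3.11.15, pandas 2.3.3, numpy 2.4.6 and scipy 1.17.1. The size and sign of log2 differences, but not the calls, were checked on simulated counts that held counting error only. Alternatives were pseudocounts of 0.1 and 5 FPKM, no filter or one of 5 FPKM, median-of-ratios, upper-quartile and TPM scaling, and leaving out mitochondrial genes, predicted genes and pseudogenes.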

Additional observations from a re-analysis of the deposited data

How the results depend on the processing

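No paired analysis was possible because each group holds 1 library, and for the same reason no library could be left out. With a pseudocount of 0.1 FPKM, 319 genes passed 2-fold upward and 218 downward, and 1217 were 1.5-fold higher. With 5 FPKM the counts were 15 and 38 at 2-fold and 125 and 179 at 1.5-fold, and the median of all genes was 0.062. Without a filter the median was 0.028. A filter of 5 FPKM left 42 higher at 2-fold, and 346 higher and 270 lower at 1.5-fold. Median-of-ratios and upper-quartile scaling turned the sign of the all-gene median, to -0.0016 and -0.013, and left 369 and 350 genes 1.5-fold higher. TPM scaling gave 345 and 254 at 2-fold and 1460 and 805 at 1.5-fold; it raises every value against a pseudocount and filter that stay as they are. Without mitochondrial genes, predicted genes and pseudogenes 50 genes were 2-fold higher. With a pseudocount of 5 FPKM, 174 of the 649 named genes moved by 0.2 or more on the log2 scale. Low genes limit the higher calls: 39 of the 81 were under 5 FPKM in both libraries, against 28 of the 114 lower ones.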

Other observations

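Further gene groups gave single members past 1.5-fold beside many that were not. Of 11 circadian clock genes 2 were higher, the repressors Bhlhe40 at 4.35, 2.98 and 6.33 FPKM and Ciart at 3.34, 1.57 and 4.12 FPKM, while Per1 stood at 6.52, 9.57 and 6.62 FPKM. Noct, nocturnin, stood at 2.47, 4.56 and 10.8 FPKM. Of 10 MAP kinase phosphatases 1 was higher, Dusp5, which acts on nuclear ERK, at 0.624, 27.1 and 45.1 FPKM; Dusp1 stood at 1.38, 3.801 and 5.72 FPKM. Of 9 costimulatory and checkpoint molecules 1 was higher, Cd83, a stabiliser of surface MHC class II, at 9.43, 93.7 and 164 FPKM, and Cd274, the ligand PD-L1, stood at 0.728, 7.35 and 4.82 FPKM. Of 12 myeloid lineage factors Klf4 at 6.12, 0.684 and 1.55 FPKM was higher, as was Bhlhe40, and Irf8 was lower.

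Lysosomal and vacuolar genes differed in few cases. Of 29 cathepsins and lysosomal enzymes 2 were 1.5-fold lower, Lyz2 and the dipeptidyl peptidase Ctsc at 10.96, 16.3 and 8.4000 FPKM, and 1 was higher, Ctsk. Of 24 V-ATPase and MiT/TFE genes 2 were lower, the proton pump subunits Atp6v0a1 at 6.25, 13.2 and 7.15 FPKM and Atp6v0d1 at 42.7, 48.2 and 31.1 FPKM. All 6 compared purinergic genes lay below 0, and 1 was 1.5-fold lower, the UDP receptor P2ry6 at 19.6, 12.97 and 7.42 FPKM. Of 41 splicing factors 1 passed 1.5-fold, Hnrnpd, whose protein AUF1 binds AU-rich mRNA, at 47.7, 31.6 and 20.7 FPKM. Of 13 long noncoding RNAs 1 did, Malat1, at 67.2, 34.2 and 55.6 FPKM. Of 9 compared histone genes 2 were higher, Hist1h1c at 7.78, 2.695 and 5.25 FPKM and Hist1h4i at 2.98, 1.77 and 5.77 FPKM, both named after their values were seen; histone mRNAs mostly lack poly(A) tails and are counted only in part in such libraries. Of 12 complement genes 1 was lower, Itgam, and of 18 genes of fatty acid beta-oxidation 1 was higher, the dehydrogenase Acadm at 13.6, 9.202 and 14.8 FPKM.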
